A study of Rattus norvegicus with 16 samples.

Results

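Cyclic nucleotide genes, which make, break down or respond to cAMP and cGMP, were examined in INS1 β cells with Pax5 overexpression. They were chosen by gene symbol as the catalytic and associated phosphodiesterase genes (Pde), adenylyl cyclases (Adcy), protein kinase A (PKA) subunits (Prkac and Prkar), Rap guanine nucleotide exchange factors (Rapgef), A-kinase anchoring proteins (Akap), and the CREB transcription factors and coactivators (Creb, Crem and Crtc). The rule found 64 genes, each with 1 transcript cluster, among 15037 gene symbols on the array. The rule itself filters on no measured value, but these genes were chosen with earlier results of these data known. A transcript cluster is the set of probes that the array reads as 1 transcript unit. In total, 23188 clusters were measured, and 8139 of them are unnamed here. Rapgef4 and Adcy9 are among the related genes not analysed here.

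In β cells, incretin hormones such as GLP-1 act on receptors that couple through the G protein Gs to adenylyl cyclase, which makes cAMP from ATP. cAMP frees the catalytic subunits of PKA from its regulatory subunits and activates the Rap exchange factors of the Epac type, and both routes amplify insulin secretion in response to glucose. Phosphodiesterases hydrolyse cAMP and cGMP and so set how far and for how long the signal spreads, anchoring proteins hold PKA and phosphodiesterases at defined places in the cell, and PKA phosphorylates CREB, which binds the cAMP response element (CRE) in the promoters of its target genes.

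The cells were the 832/13 INS1 β cells, a clonal rat insulinoma line, transduced with a lentiviral vector for Pax5 (n = 8 arrays) or for GFP (n = 8 arrays). Pax5 is a transcription factor of B lymphocytes, and GFP, a fluorescent protein, was the control. In the study's lentiviral vectors, the human phosphoglycerate kinase promoter drives an HA-tagged transgene, and both groups carry a virus, so that no array of untransduced cells was analysed here. In both groups the virus was given for 24 h at an MOI of 1.25, the glucose of the medium was 11.1 mM, and RNA was taken at 72 h. The labels number 8 experiments, each with 1 Pax5 and 1 GFP array. Since nothing in the labels says that each experiment used its own passage of cells, p reflects only how far these experiments differ. Values are log2 values after RMA, a method that removes background, brings the arrays to a common distribution and sums up the probes of each cluster. Pax5 was compared with GFP within experiments in limma, and a gene was called higher or lower at an adjusted p under 0.05 over all clusters. Levels are compared only between groups for the same cluster, since clusters differ in how well they bind.

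Pax5 itself had log2 values of 17.02, 17.2 and 17.56 (lowest, median and highest) in Pax5 cells, against 7.23, 7.96 and 8.39 in GFP cells. Of 10 measured β cell markers, 3 were higher with Pax5, by log2 fold changes of 0.62 (Kcnj11), 0.46 (Iapp) and 0.28 (Abcc8). Slc30a8 was lower (-0.40, adjusted p = 0.000862). Among these called markers, the groups did not overlap for Slc30a8, Kcnj11 (adjusted p = 5.13e-06) and Iapp (adjusted p = 4.82e-05). They overlapped for Abcc8 (adjusted p = 0.0139). Thus 40.0% of these markers were called, against 30.7% of all clusters. Ins1 and Ins2 were not called and had median log2 values of 18.23 and 17.41 in Pax5 cells, against 18.3 and 17.27 in GFP cells. Of 13 measured markers of other cell types, 2 (15.4%) were higher. These were Gcg of α cells (median 18.13 in Pax5 cells and 17.35 in GFP cells) and Krt7 of ductal cells (6.46 in Pax5 cells and 6.23 in GFP cells). Gcg therefore moved with the groups compared here, and its part in the results was not tested. All 16 arrays correlated with each other at 0.989 or above across clusters. The RNA comes from whole cultures, in which fewer cells with a transcript and less of it per cell cannot be told apart.

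Of the 64 cyclic nucleotide genes, 29 (45.3%) changed with Pax5, 17 higher and 12 lower, and 35 did not pass the test. Over all clusters, 30.7% were called, 14.6% higher and 16.1% lower. The share among the 64 genes is to be read with their brightness. Among the 16231 clusters outside the dimmest 30%, 39.7% were called, and 28 of the 57 cyclic nucleotide genes in that range were called. Of the dim clusters, 9.49% were called, and 1 of 7 dim cyclic nucleotide genes. Among the 28, Akap5 was in the brighter range only through its Pax5 values. The median log2 fold change was 0.05 for the 64 genes and 0.00 for all clusters, and the median absolute log2 fold change was 0.16 and 0.13. The 8 Pax5 values and the 8 GFP values did not overlap for 16 of the genes, while this was so for 16.7% of all clusters. Only 3 genes changed at least 2-fold, Pde4c and Pde2a upward and Akap12 downward, and 2.15% of all clusters did so.

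**Figure D1:**
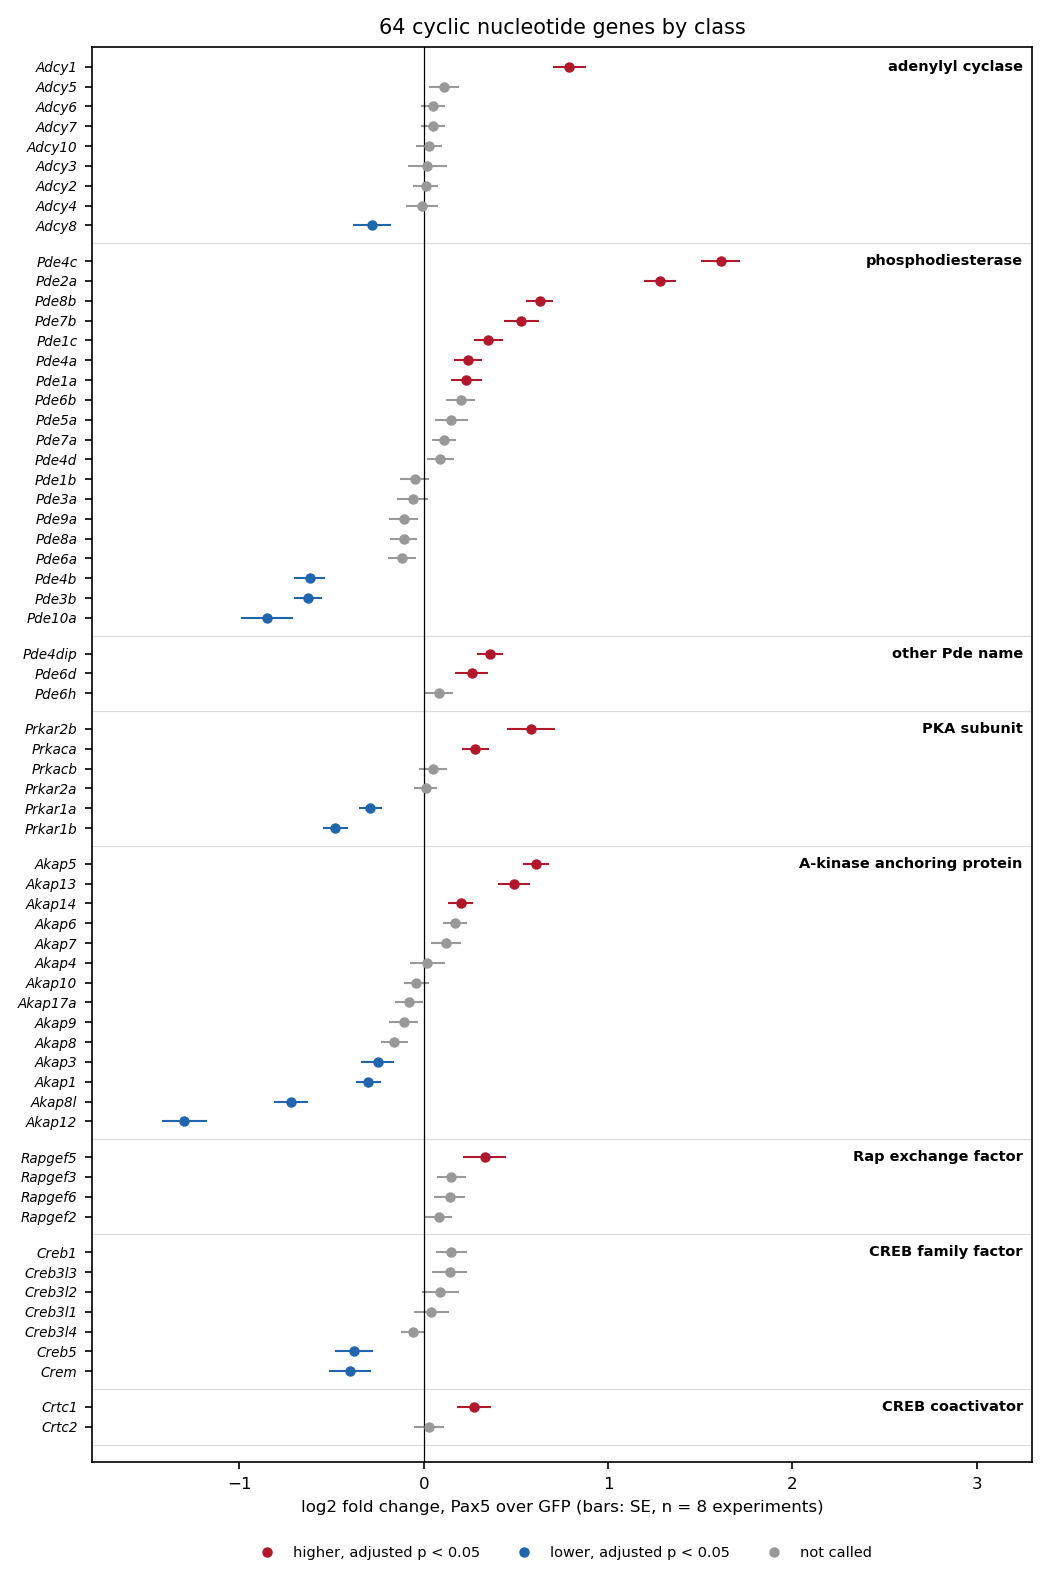
Log2 fold change (Pax5 over GFP, horizontal axis) of each of the 64 genes, grouped by class, with the SE from limma over 8 experiments as bars; red genes were higher, blue genes lower at an adjusted p under 0.05, and grey genes were not called. Pde4c (1.61) and Pde2a (1.28) lie farthest to the right and Akap12 (-1.30) farthest to the left, and genes on both sides of 0 are seen among phosphodiesterases, cyclases, PKA subunits and anchoring proteins.

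Phosphodiesterases moved in both directions. Of 19 catalytic subunits, 7 were higher (Pde4c, Pde2a, Pde8b, Pde7b, Pde1c, Pde4a and Pde1a), 3 were lower (Pde10a, Pde3b and Pde4b) and 9 did not pass the test, with a median log2 fold change of 0.11. By substrate, 4 of the 8 cAMP-specific enzymes were higher and 1 was lower (62.5% called). Of the 7 enzymes that hydrolyse both cAMP and cGMP, 3 were higher and 2 were lower (71.4% called). The 4 cGMP-specific enzymes, Pde5a, Pde9a and the photoreceptor subunits Pde6a and Pde6b, had log2 fold changes between -0.12 and 0.20 and did not pass the test (adjusted p from 0.0711 to 0.303).

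Pde4c, a cAMP-specific enzyme of the rolipram-sensitive PDE4 family, had the largest rise among the 64 genes. Its log2 values were 9.2, 9.61 and 9.89 (lowest, median and highest) in Pax5 cells, against 7.77, 7.92 and 8.2 in GFP cells. Every Pax5 array lay above every GFP array, and the rise was 1.61 on the log2 scale or 3.04-fold (SE 0.104, adjusted p = 1.36e-08), ranging from 1.06 to 2.09 between experiments. The other PDE4 genes changed less, and not all in the same direction. Pde4b, whose enzyme is known for its role in inflammatory cells, was lower by a log2 fold change of -0.62 (SE 0.0852, adjusted p = 4.38e-05), also with no overlap between the groups. Pde4a was higher by 0.24 (SE 0.0751, adjusted p = 0.0231; the call was lost without experiment 1 or 4), and Pde4d had a log2 fold change of 0.09 (SE 0.0739, adjusted p = 0.419).

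Pde2a encodes the enzyme that cGMP binds and stimulates to hydrolyse cAMP, and thereby links both messengers. Its log2 values were 11.95, 12.09 and 12.3 in Pax5 cells, against 10.52, 10.84 and 11.06 in GFP cells. The groups did not overlap, and it was higher by 1.28 or 2.42-fold (SE 0.0858, adjusted p = 2.09e-08), between 0.95 and 1.78 in each experiment. Pde3b moved the opposite way. Its enzyme is inhibited by cGMP, is activated by insulin, and restrains cAMP-dependent insulin secretion in rodent β cells. Pde3b values were 12.35, 12.52 and 12.68 in Pax5 cells, against 13.04, 13.15 and 13.32 in GFP cells. All Pax5 arrays lay below all GFP arrays, with a log2 fold change of -0.63 or 1.55-fold lower (SE 0.0764, adjusted p = 1.16e-05). Pde3a, its close relative, had a log2 fold change of -0.06 (SE 0.083, adjusted p = 0.639).

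Pde8b and Pde7b encode high-affinity, cAMP-specific enzymes, and those of the PDE8 family are insensitive to the common inhibitor IBMX. Pde8b had values of 8.98, 9.2 and 9.26 in Pax5 cells, against 8.32, 8.53 and 8.73 in GFP cells, a rise of 0.63 or 1.55-fold with no overlap (SE 0.0736, adjusted p = 7.9e-06). Pde7b had values of 7.92, 8.14 and 8.4 in Pax5 cells, against 7.32, 7.63 and 7.92 in GFP cells. The groups touched at 7.92, while within experiments Pde7b was higher with Pax5 in 8 of 8, by 0.11 to 1.08, which gave a log2 fold change of 0.53 (SE 0.0969, adjusted p = 0.000554). The study names Pde7b among the genes altered on the same arrays, so this is not independent evidence. The paralogs Pde8a and Pde7a had log2 fold changes of -0.11 (SE 0.0717, adjusted p = 0.282) and 0.11 (SE 0.0665, adjusted p = 0.22).

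Pde10a encodes an enzyme of both substrates that is abundant in the striatum. Its values were 10.19, 10.47 and 10.82 in Pax5 cells, against 10.77, 11.44 and 11.63 in GFP cells. In experiments 1 and 2 the GFP arrays were the lowest of their group (10.84 and 10.77) and the Pax5 arrays the highest of theirs (10.73 and 10.82). The GFP array of experiment 2 lay below the highest Pax5 array. The difference within experiments ran from -1.41 to 0.05, with 7 of 8 experiments lower with Pax5. The log2 fold change was -0.85 (SE 0.143, adjusted p = 0.000265). The 3 enzymes stimulated by calcium and calmodulin changed less. Pde1c, whose enzyme has a high affinity for cAMP, was higher by 0.35 with no overlap (SE 0.0776, adjusted p = 0.00272), Pde1a was higher by 0.23 (SE 0.0837, adjusted p = 0.0469), and Pde1b had a log2 fold change of -0.05 (SE 0.0784, adjusted p = 0.717). The call of Pde1a was lost in 9 of 15 alternatives, quantile normalization among them.

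**Figure D2:**
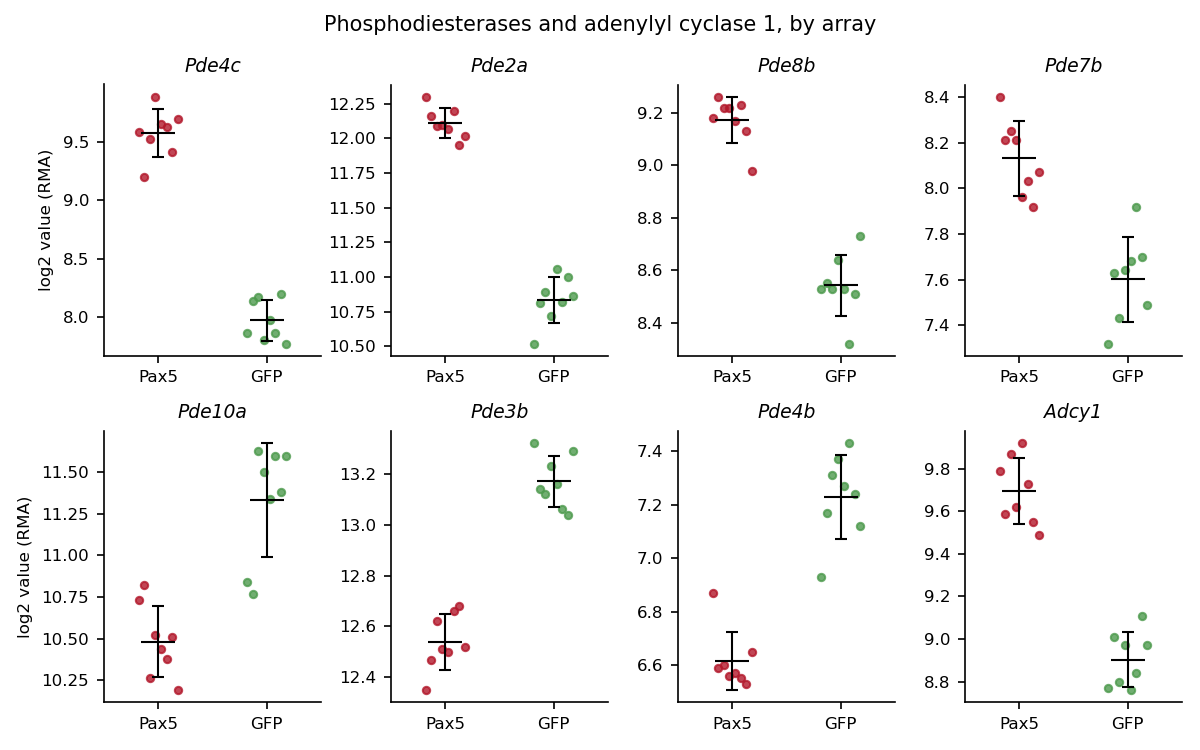
Log2 value (vertical axes, each with its own scale) of every Pax5 array (red) and GFP array (green) for 7 phosphodiesterase genes and Adcy1, with the mean and SD of 8 arrays in black. The 2 groups are apart for Pde4c, Pde2a, Pde8b, Pde3b, Pde4b and Adcy1, touch for Pde7b at 7.92, and overlap for Pde10a. For Pde10a, the 2 lowest GFP arrays lie at 10.77 and 10.84 and the 2 highest Pax5 arrays at 10.82 and 10.73.

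A further 3 genes carry a Pde name but encode no catalytic subunit. Pde4dip, which encodes the centrosomal and Golgi scaffold myomegalin, had values of 8.45, 8.55 and 8.73 in Pax5 cells, against 8.02, 8.23 and 8.32 in GFP cells, and was higher by 0.36 (SE 0.0702, adjusted p = 0.000922). Pde6d, whose product carries prenylated proteins to cilia and membranes, had values of 9.25, 9.32 and 9.67 in Pax5 cells, against 8.85, 9.18 and 9.34 in GFP cells. It was higher by 0.26 (SE 0.0906, adjusted p = 0.0421), but this call was lost in 7 of 15 alternatives, array weights among them. Pde6h, the inhibitory subunit of the cone enzyme, had a log2 fold change of 0.08 (SE 0.076, adjusted p = 0.495).

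On the side of synthesis, 2 of 9 adenylyl cyclases (22.2%, below the 30.7% called over all clusters) changed, in opposite directions. Both are of the group that calcium and calmodulin stimulate. Adcy1 had log2 values of 9.49, 9.68 and 9.92 in Pax5 cells, against 8.76, 8.91 and 9.11 in GFP cells. No arrays overlapped, and Adcy1 was higher by 0.79 or 1.73-fold (SE 0.0886, adjusted p = 5.21e-06), between 0.44 and 1.16 in each experiment. Adcy8, whose enzyme couples glucose and GLP-1 signals in rodent β cells, had values of 5.82, 6.06 and 6.25 in Pax5 cells, against 6.13, 6.24 and 6.7 in GFP cells. The groups overlapped, and the log2 fold change was -0.28 (SE 0.102, adjusted p = 0.0482), with a difference between -0.88 and 0.12 in the experiments. This call lies at the threshold and was lost in 7 of 15 alternatives, median centring and a paired test of each cluster alone among them.

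The 7 cyclases that did not pass the test had log2 fold changes between -0.01 and 0.11 (adjusted p from 0.353 to 0.934). They are Adcy3, the third member of the calcium-stimulated group, Adcy5 and Adcy6, which calcium inhibits, Adcy2, Adcy4 and Adcy7, which calcium does not regulate directly, and Adcy10, the soluble cyclase that bicarbonate stimulates. Adcy2, Adcy3 and Adcy10 lay among the dimmest 30% of clusters, where a change may not be detectable.

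Upstream of the cyclases, 8 of 20 measured receptor and G protein genes were higher and 4 were lower (median log2 fold change -0.02, against 0.00 for all clusters). The share called was 60.0%, against 30.7% of all clusters. The lowest p was that of Gcgr, the glucagon receptor, which stimulates cAMP synthesis. Gcgr values were 12.79, 12.88 and 13.12 in Pax5 cells, against 11.68, 12.05 and 12.29 in GFP cells, with no overlap and a rise of 0.90 (SE 0.0991, adjusted p = 4.66e-06). Genes of the inhibitory arm moved in both directions. Gnai1, an inhibitory G protein α subunit, was lower by a log2 fold change of -0.57 (SE 0.0855, adjusted p = 0.000101), and Adra2a, the α2A adrenergic receptor that signals through such G proteins to restrain insulin secretion, by -0.44 (SE 0.0812, adjusted p = 0.000595). The somatostatin receptor gene Sstr3 (0.51, adjusted p = 0.00124) and the genes of the inhibitory α subunits Gnao1 (0.33, adjusted p = 0.00124) and Gnaz (0.28, adjusted p = 0.00761) were higher, each with no overlap between the groups. Sstr1 (-0.32, adjusted p = 0.00499) and Gnai3 (-0.27, adjusted p = 0.00714), also of the inhibitory arm, were lower with no overlap. The other higher genes, Glp1r (0.37), Vipr1 (0.43), Adcyap1r1 (0.35) and Gnas (0.18), belong to the stimulatory arm, as does Gcgr. Besides Gcgr, Gnai1 and Adra2a, the genes of this list are named after their values were seen.

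In the cGMP arm, 2 of 13 measured genes changed (15.4%, against 30.7% of all clusters). Of the 13, 9 lay among the dimmest 30% of clusters. Gucy2c, the receptor guanylyl cyclase of the gut peptides guanylin and uroguanylin, had values of 14.41, 14.52 and 14.79 in Pax5 cells, against 13.1, 13.44 and 13.49 in GFP cells. The groups were apart, with a rise of 1.17 (SE 0.0706, adjusted p = 6.42e-09). Gucy1b1, the β subunit of the guanylyl cyclase that nitric oxide activates, had a log2 fold change of -0.46 (SE 0.0837, adjusted p = 0.000533).

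PKA is a tetramer of a pair of catalytic and a pair of regulatory subunits. Of its 6 genes measured here, 4 changed (66.7%, against 30.7% of all clusters), 2 in each direction. The catalytic subunit gene Prkaca had log2 values of 13.94, 14.06 and 14.18 in Pax5 cells, against 13.61, 13.79 and 13.9 in GFP cells, a rise of 0.28 with no overlap (SE 0.0728, adjusted p = 0.00759). Prkacb, the other catalytic gene, had values of 15.98, 16.17 and 16.31 in Pax5 cells, against 15.91, 16.13 and 16.29 in GFP cells (log2 fold change 0.05, SE 0.0767, adjusted p = 0.668). Thus Prkaca passed the test and Prkacb did not, and the difference between them was not tested.

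Of the regulatory subunits, both type I genes, whose products are found largely in the cytosol, were lower. Prkar1a values were 15.51, 15.65 and 15.74 in Pax5 cells, against 15.77, 15.96 and 16.05 in GFP cells (log2 fold change -0.29, SE 0.0636, adjusted p = 0.00215). Prkar1b values were 11.62, 11.71 and 11.86 in Pax5 cells, against 12, 12.21 and 12.3 in GFP cells (log2 fold change -0.48, SE 0.0678, adjusted p = 4.9e-05). For each of these genes the groups did not overlap, and Pax5 was lower in 8 of 8 experiments. Of the type II genes, whose products bind most anchoring proteins, Prkar2b had values of 10.62, 10.94 and 11.12 in Pax5 cells, against 9.97, 10.31 and 10.79 in GFP cells. It was higher by 0.58 or 1.5-fold (SE 0.131, adjusted p = 0.00292), with overlapping groups and a difference between -0.17 (experiment 1) and 1.15 (experiment 4). Prkar2a, the other type II gene, had a log2 fold change of 0.01 and did not pass the test (SE 0.0625, adjusted p = 0.887).

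Among 18 measured genes of other cyclic nucleotide effectors and PKA inhibitors, 3 were higher and 3 were lower. This share of 33.3% lies near the 30.7% called over all clusters and below the 39.7% called among clusters in the brighter range. Pkia, which encodes an inhibitor that binds the free catalytic subunit of PKA, had values of 12.56, 12.73 and 12.95 in Pax5 cells, against 11.85, 12.07 and 12.27 in GFP cells. It was higher by 0.67 with no overlap (SE 0.0866, adjusted p = 2.4e-05). Pkib, an inhibitor of the same family, was higher by 0.28 (SE 0.0683, adjusted p = 0.00467), and the cyclic nucleotide-gated channel gene Cngb3 had a log2 fold change of -0.57 (SE 0.143, adjusted p = 0.00651).

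Anchoring proteins share only a short helix that binds PKA and otherwise differ in structure and place. Of 14 measured, 3 were higher (Akap5, Akap13 and Akap14), 4 were lower (Akap12, Akap8l, Akap1 and Akap3) and 7 did not pass the test. The median log2 fold change of the 14 was -0.06. Thus 50.0% were called, against 30.7% of all clusters and 39.7% of clusters in the brighter range, where 13 of the 14 lay. Akap12 encodes gravin, a scaffold of PKA, protein kinase C and the β2 adrenergic receptor near the plasma membrane. Its values were 8.5, 8.98 and 9.36 in Pax5 cells, against 9.98, 10.24 and 10.57 in GFP cells. Akap12 was the gene with the largest fall among the 64, with a log2 fold change of -1.30 or 2.47-fold lower (SE 0.122, adjusted p = 7.62e-07), and the groups did not overlap. The fall varied between experiments, from -0.62 in experiment 7 to -2.07 in experiment 1.

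Akap8l encodes a nuclear protein related to AKAP8, and its values were 9.18, 9.41 and 9.63 in Pax5 cells, against 9.79, 10.18 and 10.3 in GFP cells. It was 1.65-fold lower with no overlap (log2 fold change -0.72, SE 0.091, adjusted p = 1.81e-05), while Akap8 itself had a log2 fold change of -0.16 (SE 0.0731, adjusted p = 0.114). Akap5, known as AKAP150 in rodents, brings PKA and the phosphatase calcineurin to channels at the plasma membrane and is needed for normal insulin secretion in mice. Akap5 values were 5.69, 5.79 and 5.9 in Pax5 cells, against 5.06, 5.14 and 5.33 in GFP cells, a rise of 0.61 or 1.52-fold with no overlap (SE 0.0714, adjusted p = 8.36e-06).

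Akap13, which also activates the small GTPase RhoA, had values of 11.55, 11.81 and 11.95 in Pax5 cells, against 11.1, 11.32 and 11.45 in GFP cells (log2 fold change 0.49, SE 0.0871, adjusted p = 0.000397). Akap1, the anchor of the outer mitochondrial membrane, had values of 8.72, 8.8 and 8.98 in Pax5 cells, against 8.94, 9.14 and 9.28 in GFP cells (log2 fold change -0.30, SE 0.0669, adjusted p = 0.00262). Akap13 did not overlap between the groups, and Akap1 overlapped slightly but was lower with Pax5 in 8 of 8 experiments. Akap3 and Akap14, known from sperm and cilia, had log2 fold changes of -0.25 (SE 0.088, adjusted p = 0.0394) and 0.20 (SE 0.0697, adjusted p = 0.0351), and each of these calls was lost in 5 or more of 15 alternatives. The 7 anchoring proteins that did not pass the test were Akap4, Akap6, Akap7, Akap8, Akap9, Akap10 and Akap17a, with log2 fold changes between -0.16 and 0.17 (adjusted p from 0.0593 to 0.899).

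**Figure D3:**
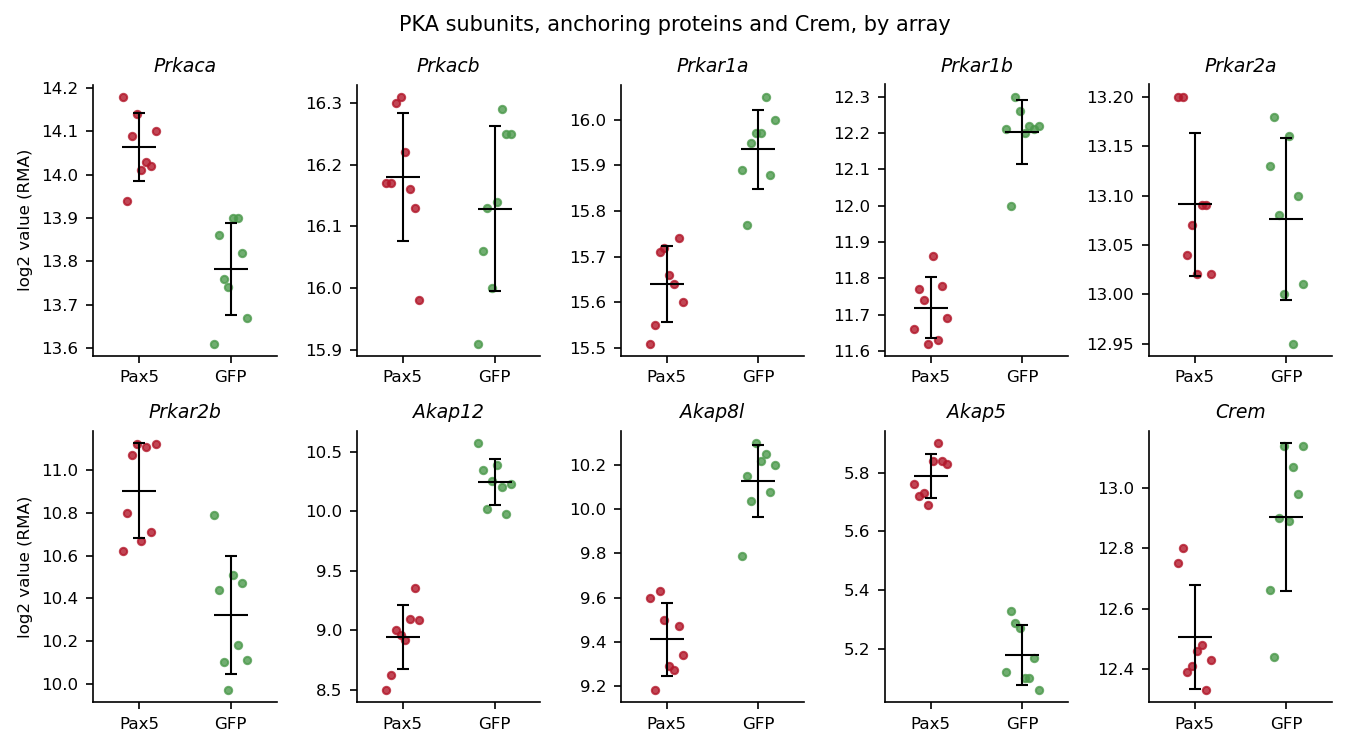
Log2 value (vertical axes, each with its own scale) of every Pax5 array (red) and GFP array (green) for the 6 PKA subunit genes, 3 anchoring protein genes and Crem, with the mean and SD of 8 arrays in black. Prkaca and Akap5 lie wholly higher and Prkar1a, Prkar1b, Akap12 and Akap8l wholly lower in Pax5 cells, and the groups overlap for Prkacb, Prkar2a, Prkar2b and Crem.

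Rap exchange factors changed little. Rapgef3, which encodes Epac1 and is the 1 cAMP-binding exchange factor measured here, had log2 values of 7.39, 7.5 and 7.67 in Pax5 cells, against 7.24, 7.32 and 7.54 in GFP cells, and did not pass the test (log2 fold change 0.15, SE 0.0785, adjusted p = 0.161). It passed in the fit without the replicate block. Rapgef5 had values of 5.87, 6.09 and 6.34 in Pax5 cells, against 5.43, 5.78 and 6.12 in GFP cells, and was higher by 0.33 (SE 0.116, adjusted p = 0.0446). The groups overlapped, only 5 of 8 experiments were higher, and the call was lost in 7 of 15 alternatives. Rapgef2 and Rapgef6 had log2 fold changes of 0.08 (SE 0.075, adjusted p = 0.496) and 0.14 (SE 0.0846, adjusted p = 0.227).

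Of the transcription factors, 2 of 7 (28.6%, near the 30.7% called over all clusters) changed, and both, Crem and Creb5, were lower. Crem encodes both activators and, from an internal promoter, the repressor ICER, which cAMP induces and which dampens the transcription of CREB targets. Crem values were 12.33, 12.45 and 12.8 in Pax5 cells, against 12.44, 12.94 and 13.14 in GFP cells, a log2 fold change of -0.40 or 1.32-fold lower (SE 0.113, adjusted p = 0.0134). The groups overlapped. Crem was lower with Pax5 in 6 of 8 experiments and higher in experiments 1 and 2, by 0.09 and 0.36 (p = 0.0391, 2-sided, from an exact permutation test that flips signs within experiments). The call was lost with a paired test of each cluster alone, and 1 cluster stands for its activator and repressor transcripts alike. Creb5 had values of 4.88, 5.19 and 5.33 in Pax5 cells, against 5.28, 5.52 and 5.8 in GFP cells (log2 fold change -0.38, SE 0.103, adjusted p = 0.0106), in the dimmest 30% of clusters. This call, too, was lost with the paired test of each cluster alone.

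Creb1, which encodes CREB itself, had values of 9.18, 9.3 and 9.59 in Pax5 cells, against 9.02, 9.25 and 9.36 in GFP cells, and did not pass the test (log2 fold change 0.15, SE 0.0861, adjusted p = 0.223). Creb3l1, Creb3l2, Creb3l3 and Creb3l4, of the family that is held in the endoplasmic reticulum membrane until cleaved, had log2 fold changes between -0.06 and 0.14 (adjusted p from 0.291 to 0.775). The coactivator gene Crtc1, whose product enters the nucleus when cAMP and calcium rise, had values of 8.09, 8.36 and 8.56 in Pax5 cells, against 7.79, 8.12 and 8.22 in GFP cells (log2 fold change 0.27, SE 0.0923, adjusted p = 0.0354). Its groups overlapped, and the call was lost in 5 of 15 alternatives. Crtc2, the better-known coactivator of CREB in β cells, had a log2 fold change of 0.03 (SE 0.0823, adjusted p = 0.809).

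Crem has 3 annotated starts on the plus strand of chromosome 17 in the RefSeq annotation of GRCr8, and the windows from 250 bases before to 50 bases after the 2 internal starts are shown because they carry full CREs. The internal starts lie 50731 and 51424 bases after the first one, whose window holds no full CRE. Capitals mark the full CRE, TGACGTCA.
Crem, chr17:58984547-58984846, plus strand: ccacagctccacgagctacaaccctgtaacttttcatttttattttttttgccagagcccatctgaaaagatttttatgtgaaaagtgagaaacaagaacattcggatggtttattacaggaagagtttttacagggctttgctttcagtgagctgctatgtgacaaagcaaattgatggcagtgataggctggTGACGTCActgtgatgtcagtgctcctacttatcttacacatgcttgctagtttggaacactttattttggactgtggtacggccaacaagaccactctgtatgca
Crem, chr17:58985240-58985539, plus strand: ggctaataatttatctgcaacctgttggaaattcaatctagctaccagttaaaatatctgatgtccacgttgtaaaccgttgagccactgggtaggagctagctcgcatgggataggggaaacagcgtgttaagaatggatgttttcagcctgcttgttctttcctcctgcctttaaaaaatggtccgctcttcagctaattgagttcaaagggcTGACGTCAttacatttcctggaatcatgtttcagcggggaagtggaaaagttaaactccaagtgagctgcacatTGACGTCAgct
The CRE of the first of these windows begins at -56 from the start, and the other window has a CRE at -35 and a further one at 40, after the start.

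A full CRE, TGACGTCA on either strand, was found in the windows of 2 of the 52 cyclic nucleotide genes with an annotated start (3.85%), Crem and Akap17a, and in those of 549 of 27457 genes (2.0%). Akap17a, which encodes a splicing regulator that binds PKA, had values of 9.61, 9.71 and 9.84 in Pax5 cells, against 9.62, 9.8 and 9.97 in GFP cells (log2 fold change -0.08, SE 0.0736, adjusted p = 0.463). The shorter core TGACG, which lies within every full CRE, was found in 15 of the 52 genes (28.8%) and in 23.0% of all genes. Of those 15 genes, 3 were higher and 3 were lower with Pax5, while 24 of all 52 genes and 30.7% of all clusters were called. The letters GCGTGAC, a core of PAX family binding, were found in 2.2% of all genes and in no window of the 52 genes. A match is a run of letters in a window and does not show that a factor binds there.

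Of 11 measured partners and regulators of CREB, 2 were higher and 2 were lower, a share of 36.4% that lies near the 30.7% called over all clusters and below the 39.7% among clusters outside the dimmest 30%. Sik3, a salt-inducible kinase that keeps CRTC coactivators in the cytosol, had values of 11.22, 11.46 and 11.64 in Pax5 cells, against 10.63, 10.77 and 10.99 in GFP cells, a rise of 0.65 with no overlap (SE 0.0856, adjusted p = 2.72e-05). Sik1, a kinase of the same family and itself a CREB target, had a log2 fold change of -0.45 (SE 0.117, adjusted p = 0.00831). Ppp3cc, a catalytic subunit of calcineurin, which dephosphorylates CRTC, had a log2 fold change of -0.28 (SE 0.0805, adjusted p = 0.0155).

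Of 20 measured target genes of CREB, 12 were lower with Pax5 and 3 were higher, with a median log2 fold change of -0.32 (0.00 for all clusters), while 16.1% of all clusters were lower and 14.6% higher. The list was written with earlier results of these arrays known, and several of its members, such as Fos and Egr1, are immediate early genes that other pathways also induce. Nr4a1, an orphan nuclear receptor induced by cAMP, had log2 values of 7.09, 7.4 and 7.74 in Pax5 cells, against 8.56, 9.38 and 9.59 in GFP cells. All Pax5 arrays lay below all GFP arrays, with a log2 fold change of -1.81 (SE 0.155, adjusted p = 2.82e-07) and a difference between -2.50 and -0.82 in each experiment. Bdnf, a neurotrophin gene with a CREB-dependent promoter, had values of 6.29, 6.58 and 6.98 in Pax5 cells, against 7.44, 7.97 and 8.06 in GFP cells (log2 fold change -1.21, SE 0.127, adjusted p = 2.79e-06). Scg2, which encodes the granule protein secretogranin II, went the other way, with values of 17.51, 17.56 and 17.66 in Pax5 cells, against 16.75, 16.81 and 16.91 in GFP cells (log2 fold change 0.73, SE 0.0622, adjusted p = 2.65e-07).

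Among the 16 target genes with an annotated start, 5 had a full CRE in the window. Their sites are shown beside each other because genes with the same letters moved in different directions. Each excerpt is of GRCr8 from RefSeq, 5′ to 3′ on the strand given, with the CRE in capitals.
Scg2, chr9:88256971-88257000, minus strand: ggctgagccggTGACGTCAgcgaggaatgc
Dusp1, chr10:17184718-17184747, plus strand: ggcagggcgggTGACGTCAccacccggtca
Vgf, chr12:25277092-25277121, minus strand: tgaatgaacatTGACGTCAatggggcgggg
Ppargc1a, chr14:63634116-63634145, plus strand: ctgcctcggagTGACGTCAggagtttgagc
Sst, chr11:90461537-90461566, plus strand: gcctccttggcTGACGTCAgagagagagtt
Scg2 and the phosphatase gene Dusp1 were higher with Pax5 (log2 fold changes 0.73 and 1.16, adjusted p = 4.6e-06 for Dusp1). The neuropeptide precursor gene Vgf and Ppargc1a, a coactivator of mitochondrial genes, were lower (-0.75 and -0.82, adjusted p = 4.4e-06 and 7.24e-05). Sst, the somatostatin gene in which the CRE was first described, had a log2 fold change of 0.01 (SE 0.0724, adjusted p = 0.961) and log2 values of 4.74 to 4.97 in Pax5 cells and 4.72 to 4.99 in GFP cells. The cluster of Sst lies among the dimmest 30%, where a change may not be detectable. Thus of the 5 genes with the same 8 letters, 2 were higher, 2 were lower and Sst was not called. Dusp1, Vgf, Ppargc1a and Sst are named for their motif, after their values were known.

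**Figure D4:**
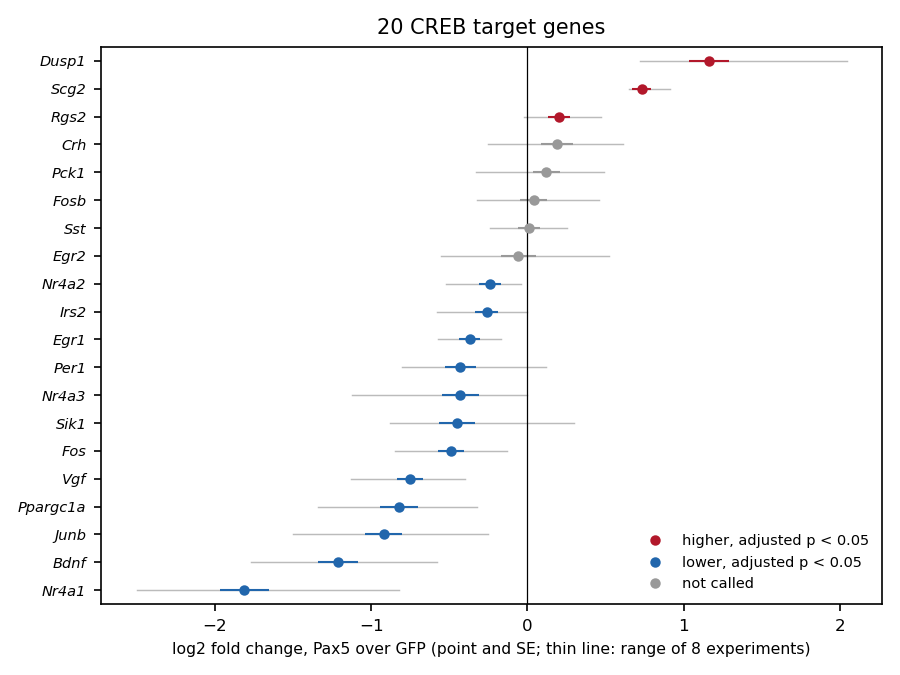
Log2 fold change (Pax5 over GFP, horizontal axis) of 20 CREB target genes with the SE as a thick bar and the range of the 8 experiments as a thin line; red genes were higher, blue genes lower at an adjusted p under 0.05 from limma, and grey genes were not called. Nr4a1 (-1.81) and Bdnf (-1.21) are at the lower end, and Dusp1 (1.16) and Scg2 (0.73) at the upper end.

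The size of the changes differed between experiments. Where a Pax5 array lay above the mean of its group, the GFP array of the same number tended to lie below its own. Correlations of these departures ran from -0.749 to -0.704. The difference within an experiment therefore adds both departures together. How far processing before deposit shaped the sizes given here was not tested. For the 29 called cyclic nucleotide genes, the mean difference in the called direction was 0.58, 0.39, 0.59, 0.6, 0.53, 0.64, 0.37 and 0.58 in experiments 1 to 8. Experiments 2 and 7 thus had the smallest means for these genes. Over all called clusters their means were 0.4 and 0.43, against 0.42 to 0.57 in the other experiments. Experiment 2 had the smallest difference for 9 of the 29 genes and experiment 7 for 8, and experiment 1 had the largest for 9. Differences against the called direction were seen for 5 genes in experiment 2, for 3 in experiment 1 and for 0 in experiment 6. Experiment 1 had the largest rises of Pde2a, Pde7b and Pde1c and the largest falls of Akap12, Pde3b and Adcy8, yet Pde10a, Pde4b and Akap8l differed by only -0.11, -0.06 and -0.19 there.

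**Figure D5:**
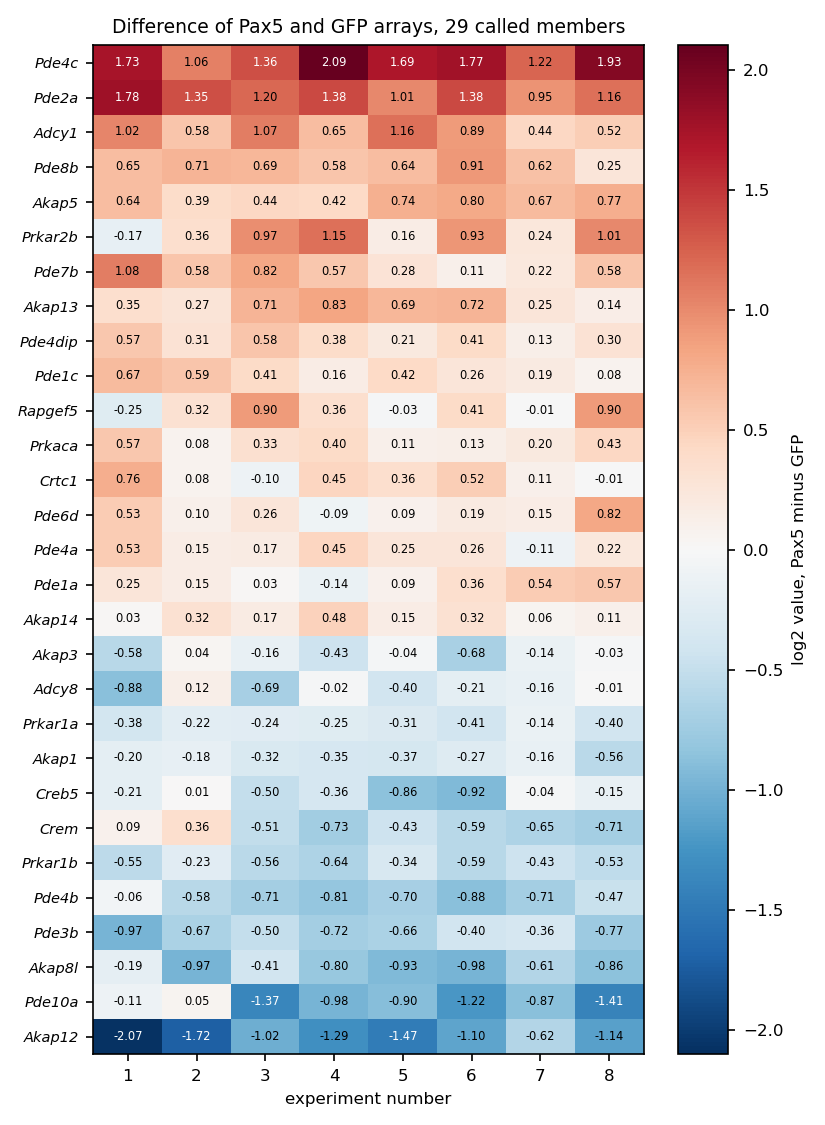
Difference in log2 value (Pax5 minus GFP) of each of the 29 called genes (rows, ordered by mean difference) in each of 8 experiments (columns), with red for higher and blue for lower in Pax5 cells. Pde4c is higher by 1.06 or more and Akap12 lower by 0.62 or more in every column, while Crem, Prkar2b and Rapgef5 change sign between columns. How far processing before deposit shaped the contrast between columns was not tested.

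Of the 29 calls, 19 were kept in each of the 15 alternatives that refitted the data. They include Pde4c, Pde2a, Pde8b, Pde7b, Pde1c, Pde10a, Pde3b and Pde4b of the phosphodiesterases, Adcy1, the 4 called PKA subunits and Akap12, Akap8l, Akap5, Akap13 and Akap1. Akap5 passed the filter on dim clusters only through its Pax5 values. The other 10 calls, which were lost in at least 1 alternative, were those of Adcy8, Akap3, Akap14, Creb5, Crem, Crtc1, Pde1a, Pde4a, Pde6d and Rapgef5.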

How the data were processed

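RNA of INS1 β cells (8 Pax5 and 8 GFP arrays) was hybridized to Affymetrix GeneChip arrays (1 colour). The values deposited by the authors are log2 expression values, for which the submitters' processing notes name Transcriptome Analysis Console and RMA. Their versions and settings were not given in the sources used here. RMA normalizes between arrays and compresses changes of dim clusters. Array medians were 6.98 to 7.01. Precision is limited by the number of arrays.

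For the comparison of Pax5 with GFP, lmFit and eBayes of limma 3.58.1 were run in R 4.3.3. Experiments entered as fixed blocks, Benjamini-Hochberg adjustment covered all 23188 clusters, and the threshold was 0.05. Every adjusted p in the text comes from this fit. An exact sign-flip permutation over the 8 pairs (2-sided) served as a check of single genes. Arrays were paired by the experiment number in their labels. As a check, deviations from the group means of same-numbered arrays correlated between -0.749 and -0.704, and those of other numbers between -0.0893 and 0.259, so they deviated in opposite directions. Whether an experiment effect was removed before deposit is not stated in the sources used here, and its part in the SEs and p of the blocked fit was not tested.

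Symbols come from the platform annotation, and the cluster with the highest mean stands for a symbol. All 64 genes were matched to RefSeq (GRCr8) by gene number, and 52 had a promoter window (68 windows). Up to 5 called genes a class are given with their values (by absolute log2 fold change), as is Pde7b, since the study names it, and up to 3 of each other list with the lowest p. The uncalled Akap17a, Creb1, Prkacb and Rapgef3 are given with their values too. The cyclic nucleotide genes and the lists were chosen with earlier results of these data known. The test was tried on simulated data in which both arrays of an experiment shared an added effect. The measured arrays of an experiment deviated in opposite directions, so the trial does not cover the pairing seen here. Alternatives were the fit without the block, median centring, quantile normalization, a filter on the dimmest 30% of clusters, array weights, trended and robust eBayes, the methods' paired t-test, each experiment left out, and stricter thresholds. Scanner files were not used here.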

Additional observations from a re-analysis of the deposited data

Results flagged for a closer look

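Each of the 64 genes was examined for single arrays that stand apart, by Dixon's test, separately in Pax5 and in GFP cells (128 groups of 8 arrays). In 3 groups an array did so, where chance gives about 6.4 (1 in 20). The Pax5 array of experiment 1 was highest for Pde4b (6.87, nearest 6.65), and the difference of Pde4b was smallest in that experiment (-0.06). The Pax5 array of experiment 8 was lowest for Pde8b (8.98, nearest 9.13), which had its smallest rise there (0.25). The GFP array of experiment 2 was lowest for Prkar1b (12, nearest 12.2), where the difference was -0.23. All 3 genes kept their calls without the experiment concerned.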

How the results depend on the processing

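Of the 64 genes, 29 were called. At an adjusted p under 0.01, 19 were called, and with an absolute log2 fold change of at least 0.5, 12 were called (7 higher, 5 lower). Without the replicate block, 34 were called, adding Akap6, Akap8, Rapgef3, Pde6b and Pde7a, while 10584 of all clusters were called in place of 7108. It lost none of the 29 calls. Other refits gave 22 (paired t-test) to 28, and leaving out 1 experiment gave 22 to 27 (6210 to 6798 of all clusters). Of the other pathway genes, 38 of 81 were called, against 30.7% of all clusters and 39.7% of those outside the dimmest 30%. The same alternatives, applied to these genes after the data had been seen, gave 28 to 49 of them and 4760 to 10584 of all clusters. No called gene changed sign. Genes near 0 that were not called took both signs or 0 when 1 experiment was left out: Akap4 (-0.04 to 0.08), Crtc2 (-0.02 to 0.08), Creb3l1 (-0.03 to 0.11), Prkar2a (0.00 to 0.04), Adcy10 (0.00 to 0.06), Adcy2 (-0.02 to 0.03), Adcy3 (-0.07 to 0.08), Adcy4 (-0.07 to 0.05) and Pde1b (-0.10 to 0.00). The lowest-mean cluster of a symbol gave no separate value, since each gene has 1 cluster. Genes in the dimmest 30% (7 of 64) are limited by signal over background.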
